A study of Gallus gallus with 6 samples.

Results

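The chromatin around 8 chicken genes of lipid uptake and fatty acid activation was described by ATAC-seq, an assay that uses Tn5 transposase to cut the DNA left open between nucleosomes. The genes were LMF1, LIPG, ANGPTL4, VLDLR, CD36, SLC27A1, SLC27A4 and ACSL1, and all 8 were in the RefSeq annotation of GRCg7b. A peak counted for a gene where its summit, the base covered by most fragments, lay in the gene or within 50 kb of it. Of the 225668 peaks in the 6 deposited lists, 476 met this rule, and they joined into 171 of the 100148 regions formed by overlapping peaks. The tissue was whole abdominal fat from 3 birds labelled FL and 3 labelled LL, 1 library per bird. Both lines belong to NEAUHLF, a broiler population known for a fat and a lean line. The labels do not spell out FL and LL and name no treatment, genotype, age or sex.

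Fat cells take up lipid that reaches them on lipoproteins. Lipases on the vessel wall cut triglycerides and phospholipids, receptors and membrane proteins pass the released fatty acids inward, and acyl-CoA synthetases activate them for storage. In birds most of this fatty acid is made in the liver and arrives as very low density lipoprotein, so these steps feed the fat depot. LMF1 is a chaperone of the endoplasmic reticulum that lipases need to fold, LIPG is endothelial lipase, and ANGPTL4 is a secreted inhibitor of lipoprotein lipase. VLDLR binds triglyceride-rich lipoproteins and in hens is best known for loading yolk into the oocyte. CD36 is a membrane receptor for fatty acids, SLC27A1 and SLC27A4 are fatty acid transport proteins that also activate long-chain fatty acids, and ACSL1 is a long-chain acyl-CoA synthetase.

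Replicates 1 to 3 had lists of 58060, 32066 and 23188 peaks for FL and of 73410, 23316 and 15628 for LL. Depth was read from the genome-wide background, which ran from 2.23 to 8.73 fragments over a base and was highest in LL replicate 3, the shortest list. FL replicate 1 and LL replicate 1, the longest lists, stood apart from the other 4 libraries. There 7 and 8 of 8 endothelial marker genes had a peak within 1 kb of an end, against 1 to 2 elsewhere. Over all coding genes the share with such a peak was also highest there, at 69.5% and 72.3%. Elsewhere it was 41.55% to 56.57%. The part of list length in the marker counts was not tested. Of 7 adipocyte markers in the annotation, 6 to 7 had such a peak in FL and 4 to 7 in LL. Myeloid markers were at 4 to 5 of 6 in FL and at 6, 2 and 2 of 6 in LL replicates 1 to 3, and fibroblast markers at 4 to 6 of 6 in FL and 3 to 6 in LL. Lymphocyte markers were at 3 of 6 in FL and at 4, 3 and 1 of 6 in LL replicates 1 to 3. Skeletal muscle markers were at 1 to 3 of 5 in FL and 1 to 2 of 5 in LL. Of 6 liver markers 1 had such a peak in FL and 1 to 2 in LL, while ALB, FGB, TTR and AHSG had none in any library. Each library measures a mixture, so fewer cells of a type and less open chromatin per cell cannot be told apart. A peak missing from a list means that it was not called there, which does not show closed chromatin.

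The 8 loci held 119, 54 and 53 peaks in FL and 157, 53 and 40 in LL, or 0.205%, 0.168% and 0.229% of the list in FL and 0.214%, 0.227% and 0.256% in LL. With each list cut to its best 15628 peaks by q-value, the loci kept 39, 32 and 42 peaks in FL and 39, 36 and 40 in LL. The lines overlapped on both scales, and in the full lists FL replicate 2 held the lowest share and LL replicate 3 the highest. The median locus had 2.18 to 2.80 peaks per 10000 peaks of the list in FL and 2.57 to 3.20 in LL. The median of 17839 coding genes was 1.56 to 1.73 in FL and 1.64 to 1.92 in LL, measured in the same way. This measure is not scaled for gene length. By peaks per 100 kb the median percentile among coding genes ran from 41.4 at LMF1 to 93.5 at CD36, with VLDLR at 43.5.

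**Figure D1:**
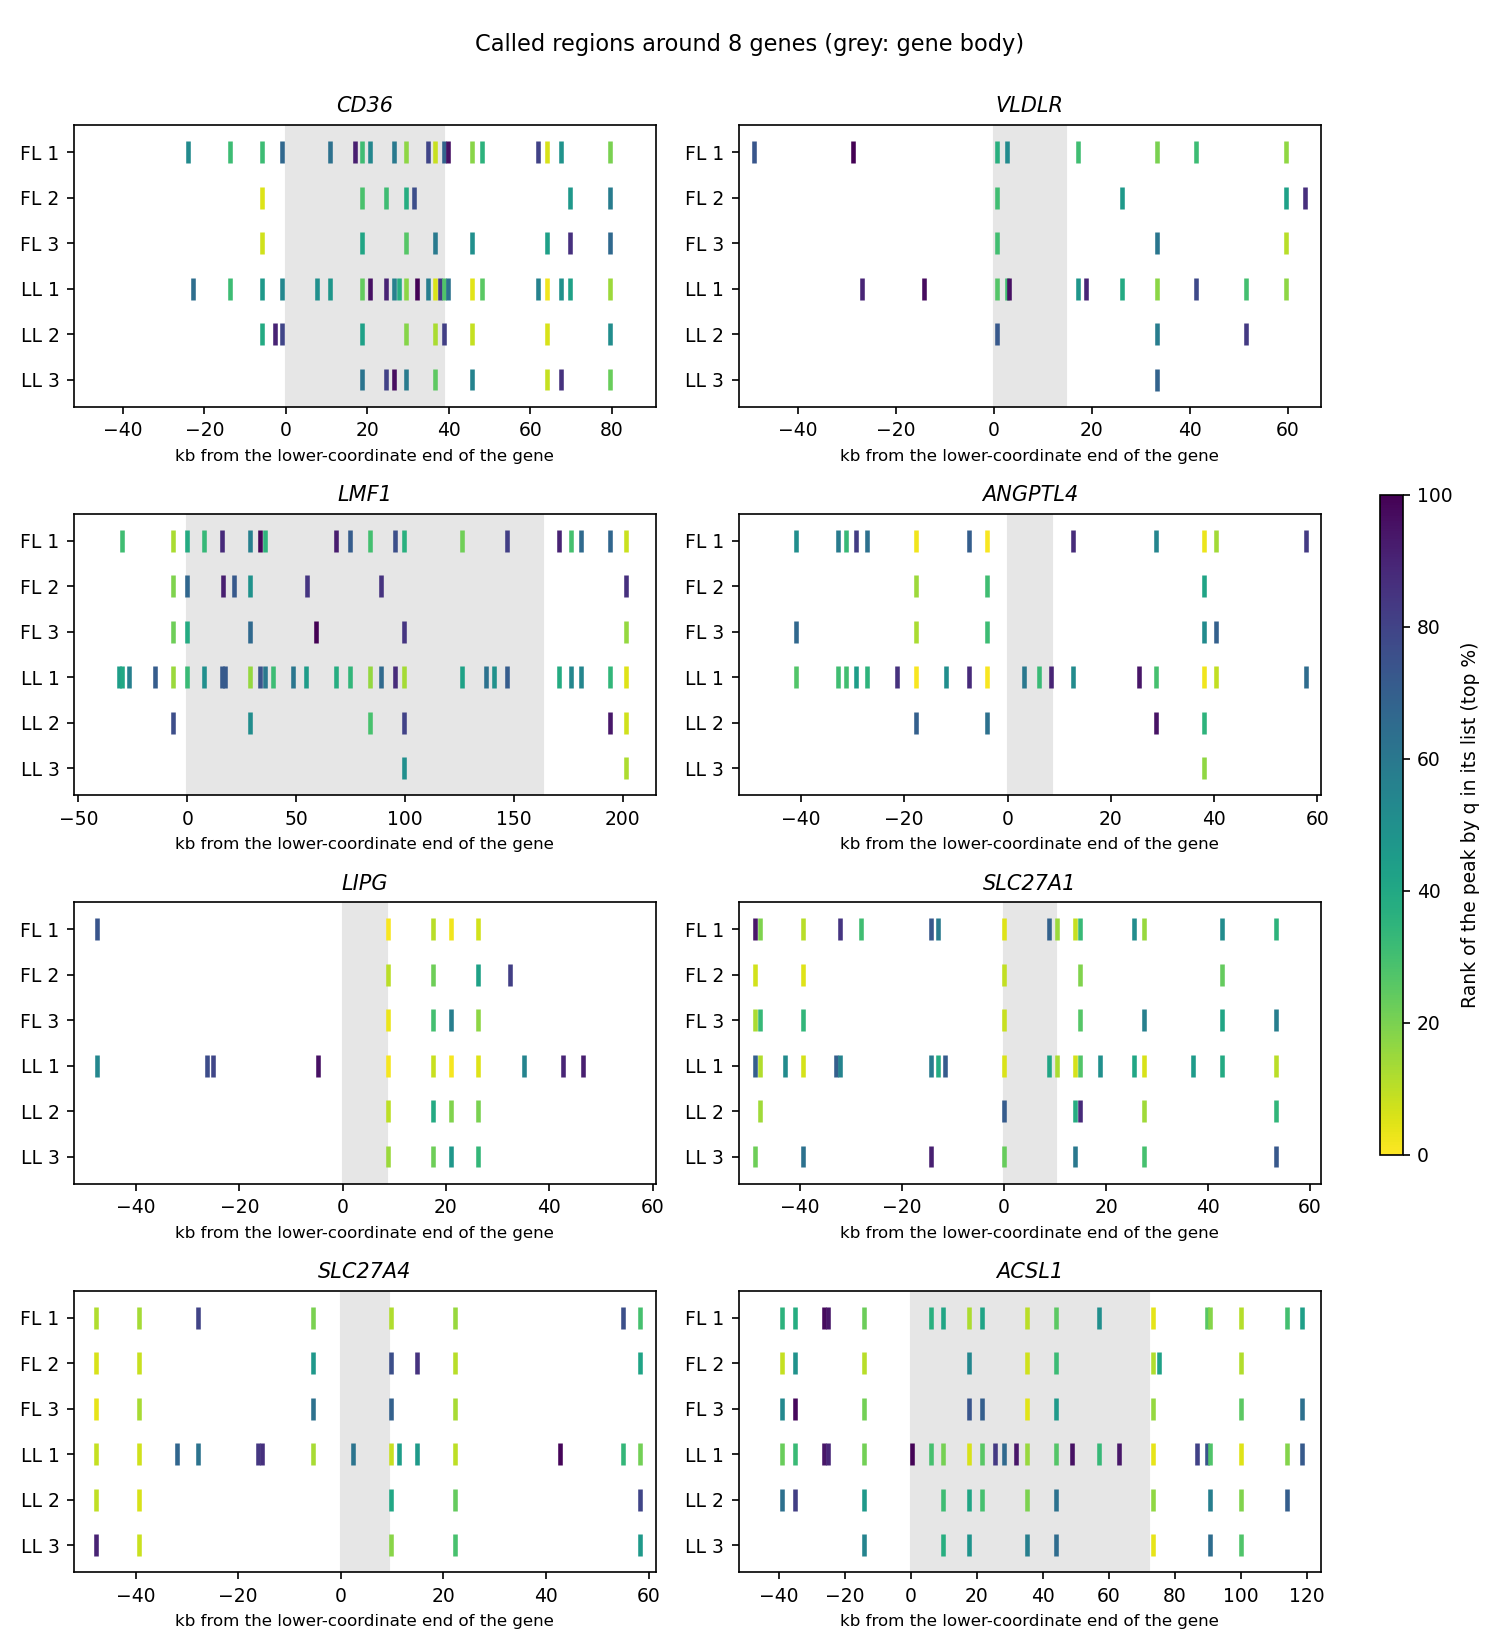
Regions called in each library around the 8 genes, by distance in kb from the end of the gene with the lower coordinate. Each tick is a region drawn at 1 common position in all libraries, the grey band is the gene, and the colour gives the rank of the peak in its own list by q-value, in percent from the strongest (0) down. LL 1 carries the most ticks at each of the 8 genes, up to 30 at LMF1, and LL 3 carries 1 at VLDLR and 1 at ANGPTL4.

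The lipase chaperone LMF1 lies on chromosome 14 from 5763296 to 5926535 and, at 163.2 kb, is the longest of the 8 genes. Its locus held 22, 8 and 8 peaks in FL and 30, 6 and 2 in LL. At its lower end a peak was called in every FL library and LL replicate 1, in the region 14:5763040-5763733, with 51, 25 and 28 fragments over the summit in FL and 69 in LL replicate 1. No peak lay within 2 kb of that end in LL replicates 2 and 3. These were middling peaks: they stood in the top 39.1%, 66.9% and 38.7% of the FL lists and the top 32.3% of LL replicate 1. Of the 34 regions at the locus, 23 had their summit inside the gene, and none of those 23 was called in all 6 libraries. The region called in all 6 was 38.1 kb above the gene at an end of LOC416530. The end of SOX8, a transcription factor gene 6.7 kb below LMF1, was called in 5 libraries and missing from LL replicate 3.

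LIPG, which encodes endothelial lipase, was the member with the strongest peak at its own end: in all libraries but FL replicate 2 it ranked better than any other peak within 1 kb of a member's end. In LL replicate 3 this rested on the 1 kb limit. There a peak 1058 bp from the upper end of ACSL1, at the neighbouring gene CENPU, stood in the top 3.77%. LIPG lies on chromosome Z from 1390347 to 1398966, and the region Z:1398617-1399526 covers its upper end. This peak held 260, 53 and 77 fragments in FL and 330, 50 and 51 in LL. It stood in the top 0.956%, 10.2% and 3.02% of the FL lists and the top 1.21%, 9.93% and 15.1% of the LL lists, so the lines overlapped. The best percent ranks were those of FL replicate 1 and LL replicate 1. These 2 libraries have the longest lists, which favours a percent rank, and nearly all endothelial markers occupied. The part of list length or of those cells in these ranks was not tested. The authors' fold enrichment over local background was 12.5, 5.17 and 12.3 in FL and 16.1, 5.76 and 4.05 in LL. No other coding gene has an end within 1 kb, and no peak was called within 2 kb of the lower end of LIPG. No summit lay inside the gene in any library. The other 2 regions called in all 6 libraries at this locus lay at ends of the ribosomal protein gene RPL17 and of DYM, 8.8 kb and 17.6 kb above LIPG.

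ANGPTL4, the lipase inhibitor, lies on chromosome 28 from 1263082 to 1271708 in a crowded stretch with 11 other coding genes in its window. Its locus held 16, 3 and 5 peaks in FL and 19, 4 and 1 in LL, but few of them lay near the gene itself. All 3 regions inside ANGPTL4 were called in LL replicate 1 alone, with 56, 81 and 40 fragments. The last of these, at the upper end, stood in the top 89.9% of that list, close to the bottom. The strong peaks of the window belonged to neighbours. The RAB11B end at 28:1258718-1259537 stood in the top 0.877% of FL replicate 1 and the top 1.05% of LL replicate 1, against the top 30.7% to 63.0% in the 3 other libraries that called it. The end of the ribosomal protein gene RPS28 was the 1 region of the window called in all 6. Of the 19 regions, ANGPTL4 was the nearest coding gene to 4.

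The receptor gene VLDLR lies on chromosome Z from 27059520 to 27074222. The locus held 9, 5 and 3 peaks in FL and 12, 3 and 1 in LL, and it was the 1 locus of the 8 without a region called in all 6 libraries. The lower end of the gene was itself under a peak, or within 42 bp of one, in FL replicates 1 to 3 and in LL replicate 1. In LL replicate 2 the nearest peak started 696 bp inside the gene, where FL replicates 1 and 2 also had a separate peak, and LL replicate 3 had none within 2 kb. LMF1 showed the same division at its lower end. Counted within 1 kb, the VLDLR end was therefore occupied in 5 libraries, with ranks of 36.8%, 30.5% and 30.4% in FL and 26.9% and 72.4% in LL. A noncoding gene, LOC107052277, has an end within 1 kb of the summit of this joined region, Z:27058910-27061091. A region 18.6 kb above the gene, Z:27092544-27093602, was called in all libraries except FL replicate 2, and it was the single peak that LL replicate 3 had at this locus.

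CD36, the fatty acid receptor, lies on chromosome 1 from 11389956 to 11428714 with 2 other coding genes in its window. It held 21, 9 and 8 peaks in FL and 25, 11 and 10 in LL. By peaks per 100 kb its locus stood at the 82.8th to 97.4th percentile of coding genes, the highest median percentile of the 8, at 93.5. Neither end of CD36 was under a peak in most libraries: both ends were occupied in FL replicate 1 and in LL replicates 1 and 2, by peaks no better than the top 27.6% of a list. At this locus 3 regions were called in all 6 libraries, and 2 of them lay inside the gene. The other, 1:11468565-11470661, lay 40.7 kb above CD36 and 1215 bp from an end of GNAT3. The region 1:11408188-11409204 held 67, 27 and 24 fragments in FL and 117, 38 and 36 in LL, and 1:11419131-11419771 held 100, 27 and 36 in FL and 167, 57 and 41 in LL. Both were called in all 6 libraries. Of 3883 coding genes at least as long as CD36, 6.44% held 2 or more such inner regions.

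Around CD36 the strongest peak was not the same one in every library. In FL replicates 2 and 3 it lay 5.8 kb below the gene, at 1:11383853-11385080, in the top 5.39% and 7.16% of the list. The same region stood in the top 31.3%, 46.2% and 39.4% of FL replicate 1 and LL replicates 1 and 2, and it was not called in LL replicate 3. In FL replicate 1 and all LL libraries the strongest peak lay 25.2 kb above the gene, at 1:11453571-11454261. The nearest coding gene to that region was GNAT3, with an end 16711 bp away. It stood in the top 5.97% of FL replicate 1 and the top 1.96%, 6.24% and 8.62% of the LL lists. FL replicate 3 had it in the top 43.5%, and FL replicate 2 did not call it. Near the upper end and above it, 3 regions (1:11426083-11426732, 1:11434915-11435912 and 1:11453571-11454261) were called in all libraries but FL replicate 2. FL replicate 1 thus had the same strongest region as the LL libraries, and the choice of region did not divide the lines. By percent rank at 1:11383853-11385080, the FL libraries did lie ahead of LL replicates 1 and 2, and LL replicate 3 had no call. That order was seen after the fact in lists that differ in length, and no share of all regions was set beside it.

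SLC27A1 lies on chromosome 30, one of the smallest chicken chromosomes, from 687284 to 697379, with 12 other coding genes in the window. Its locus held 16, 6 and 8 peaks in FL and 20, 6 and 7 in LL. Its lower end was under or within 10 bp of a peak in all 6 libraries, in the region 30:686711-687676, with 135, 49 and 53 fragments in FL and 169, 25 and 39 in LL. Ranks were in the top 4.76%, 9.33% and 8.59% in FL and the top 5.83%, 71.3% and 23.1% in LL. An end of NXNL1 lies within 1 kb, so the peak cannot be given to 1 of the 2 genes. The upper end was occupied in FL replicate 1 and LL replicate 1, by a peak next to PGLS. Inside SLC27A1 1 summit was called, in those same libraries, in the top 69.0% and 41.4% of the list.

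SLC27A4 lies on chromosome 17 from 5647535 to 5656947. Its upper end was occupied in all 6 libraries, in the region 17:5656868-5658463, with 146, 35 and 31 fragments in FL and 238, 51 and 61 in LL. Ranks spread from the top 12.1%, 76.1% and 69.2% in FL to the top 8.54%, 40.4% and 17.7% in LL. A transfer RNA gene, TRNAR-UCU, has an end within 1 kb of the summit. The lower end had no peak within 2 kb in any library. The other 3 regions of this locus called in all 6 libraries stood at ends of TOR2A, TTC16 and GOLGA2. The TTC16 end was the most even of all, in the top 13.6%, 8.50% and 13.0% of the FL lists and the top 7.26%, 6.08% and 7.86% of the LL lists. On this rank, a percent of lists that differ in length, the LL libraries lay ahead of the FL libraries. That order was seen in 1.95% of the 7605 regions called in all 6 libraries. No other region of the 19 at the 8 genes divided the lines in this direction by percent rank, and 1 did in the other. The TTC16 end was singled out after its ranks were seen. Its fold enrichment overlapped between the lines, at 4.692, 4.553 and 7.021 in FL and 7.23, 4.804 and 3.954 in LL. Folds are not on 1 scale between lists of unlike background, so this overlap is no check on the rank order.

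ACSL1, the acyl-CoA synthetase, lies on chromosome 4 from 38972617 to 39044796 and had the most regions called in all 6 libraries, 6 of its 26. Its locus held 20, 10 and 12 peaks in FL and 25, 13 and 9 in LL. Inside the gene 3 regions were shared by all libraries: 4:38989874-38990410, 4:39007456-39008406 and 4:39015649-39017132. As many were found in 2.96% of the 2027 coding genes at least as long. The middle region was the strongest peak of its window in FL replicates 2 and 3. It held 110, 56 and 71 fragments in FL and 143, 50 and 40 in LL, in the top 10.3%, 7.32% and 4.43% of the FL lists and the top 15.4%, 19.8% and 57.1% of the LL lists. On this rank, a percent of lists that differ in length, the 3 FL libraries lay ahead of the 3 LL libraries. The region was singled out after its ranks were seen, and 3.41% of the 7605 regions called in all 6 libraries were ordered in this way. At this region the lines overlapped in fragments. They also overlapped in fold enrichment, at 6.255, 5.819 and 11.38 in FL and 5.984, 4.215 and 2.74 in LL. Its neighbour 4:38989874-38990410 stood in the top 12.5%, 53.8% and 73.6% in FL and the top 6.17%, 41.4% and 48.2% in LL, and there the lines overlapped.

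The ends of ACSL1 itself were weakly marked. The lower end had a peak of 23 fragments in LL replicate 1, in the top 98.9% of that list, and an end of HELT lies within 1 kb of that ACSL1 end. The upper end was counted as occupied in FL replicate 1 and LL replicates 1 and 2, but the peak in question centres on CENPU, a centromere protein gene, and was called in all 6 libraries. Its near edge lay 990, 975 and 963 bp from the ACSL1 end in those 3 libraries and 1128, 1206 and 1058 bp away in FL replicates 2 and 3 and LL replicate 3. The difference in the count thus came from the 1 kb limit. At that CENPU end LL replicate 3 had its best rank of the locus, in the top 3.77%. Also called in all 6 libraries was 4:38958043-38958823, 14.2 kb below ACSL1 and outside coding genes. It stood in the top 22.48%, 10.75% and 21.16% in FL and the top 21.25%, 46.26% and 54.95% in LL. So was 4:39072170-39074005, at an end of PRIMPOL 28.0 kb above ACSL1. Its ranks were the top 11.21%, 11.56% and 25.06% in FL and the top 4.933%, 19.11% and 27.64% in LL.

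**Figure D2:**
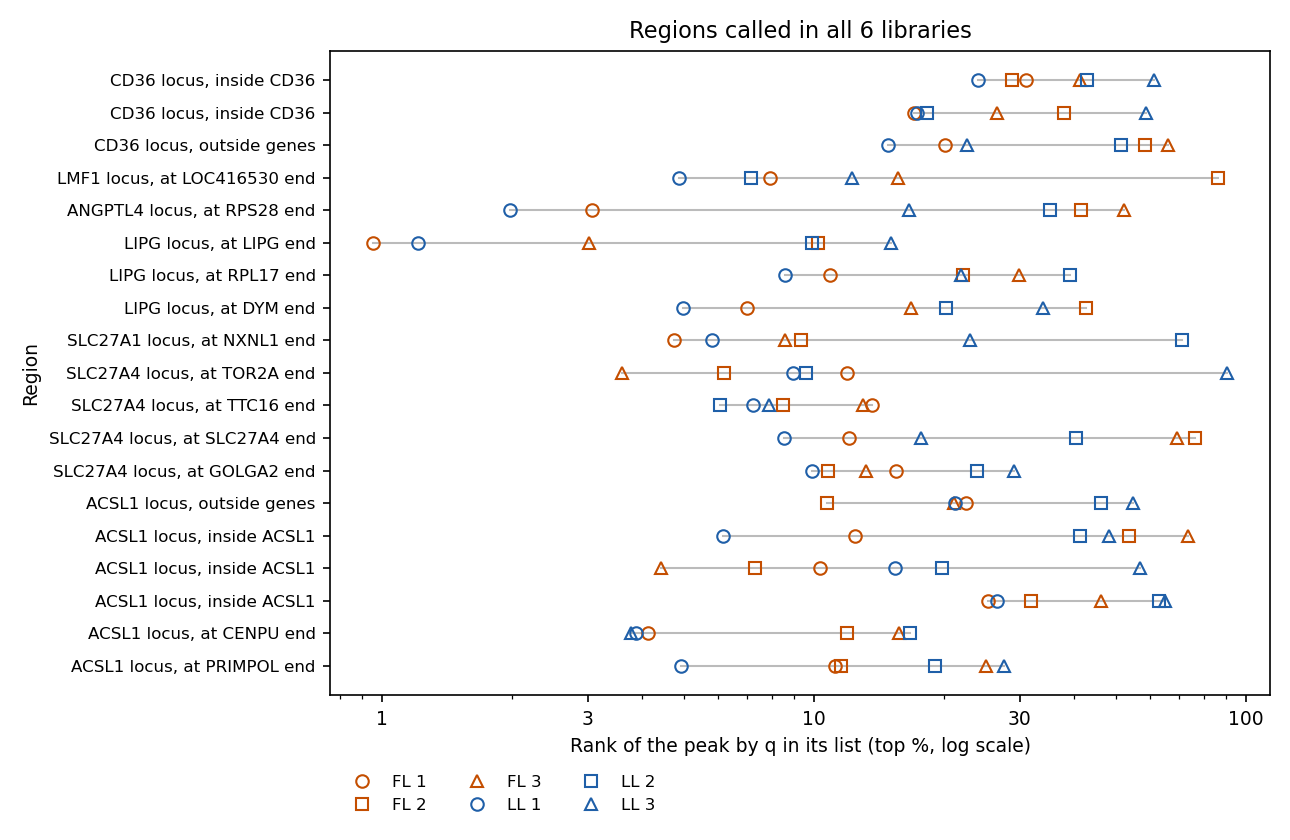
Rank of the peak in its own list (percent by q-value, log scale, strongest at left) for the 19 regions called in all 6 libraries, named by locus and place. Each symbol is a library, FL in orange and LL in blue, and the grey line spans the 6. The LIPG end reaches the top 0.956%. On this percent scale the middle ACSL1 region has the 3 FL libraries ahead of the 3 LL libraries. Their fold enrichments overlap, but folds are not on 1 scale between lists.

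The first comparison between the lines asked whether peaks gather at these genes more in 1 line, counting peaks in the window per 10000 peaks of the list. No member had lines that did not overlap, in either direction. Over all 17839 coding genes, 2.98% were higher in all FL than in all LL libraries and 4.1% the reverse. CD36 had the widest gap, at 3.29 ± 0.428 for FL against 4.84 ± 1.5 for LL (mean ± SD, n = 3 each, exact two-sided permutation p = 0.3). ACSL1 was at 3.91 ± 1.11 for FL against 4.91 ± 1.31 for LL (mean ± SD, n = 3 each, exact two-sided permutation p = 0.3). LMF1, at 3.25 ± 0.671 and 2.65 ± 1.41, VLDLR, at 1.47 ± 0.151 and 1.19 ± 0.505, and ANGPTL4, at 1.95 ± 0.928 and 1.65 ± 0.976, were the 3 with the higher mean in FL. The exact p-values of the 8 genes ran from 0.3 to 0.7, before any adjustment, and 3 libraries against 3 cannot go below 0.1.

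The means of LIPG were 1.38 ± 0.459 in FL and 1.93 ± 0.561 in LL, those of SLC27A1 were 2.69 ± 0.791 and 3.26 ± 1.06, and those of SLC27A4 were 2.12 ± 0.387 and 2.82 ± 0.923. The mean was thus lower in FL for 5 of the 8 genes, and it was lower in FL for 56.6% of coding genes. Which lines overlapped rested on LL replicate 1. Without it CD36, SLC27A4 and ACSL1 were higher in both remaining LL libraries than in all FL libraries, as were 12.2% of coding genes, and VLDLR was higher in FL, as were 8.51%. With FL replicate 1 also left out, the same 4 genes had lines that did not overlap. Among 2 libraries against 2, 14.4% of coding genes were then higher in FL and 17.4% higher in LL. Leaving out LL replicate 3 shrank the gap, FL minus LL, from -1.55 to -0.770 at CD36, from -1.001 to -0.578 at ACSL1, from -0.694 to -0.184 at SLC27A4, from -0.543 to -0.225 at LIPG and from 0.281 to 0.00706 at VLDLR. Without LL replicate 3 the means of LMF1, ANGPTL4 and SLC27A1 changed direction, with FL minus LL at -0.0853, -0.203 and 0.0434, and without FL replicate 1 that of ANGPTL4 was -0.102.

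**Figure D3:**
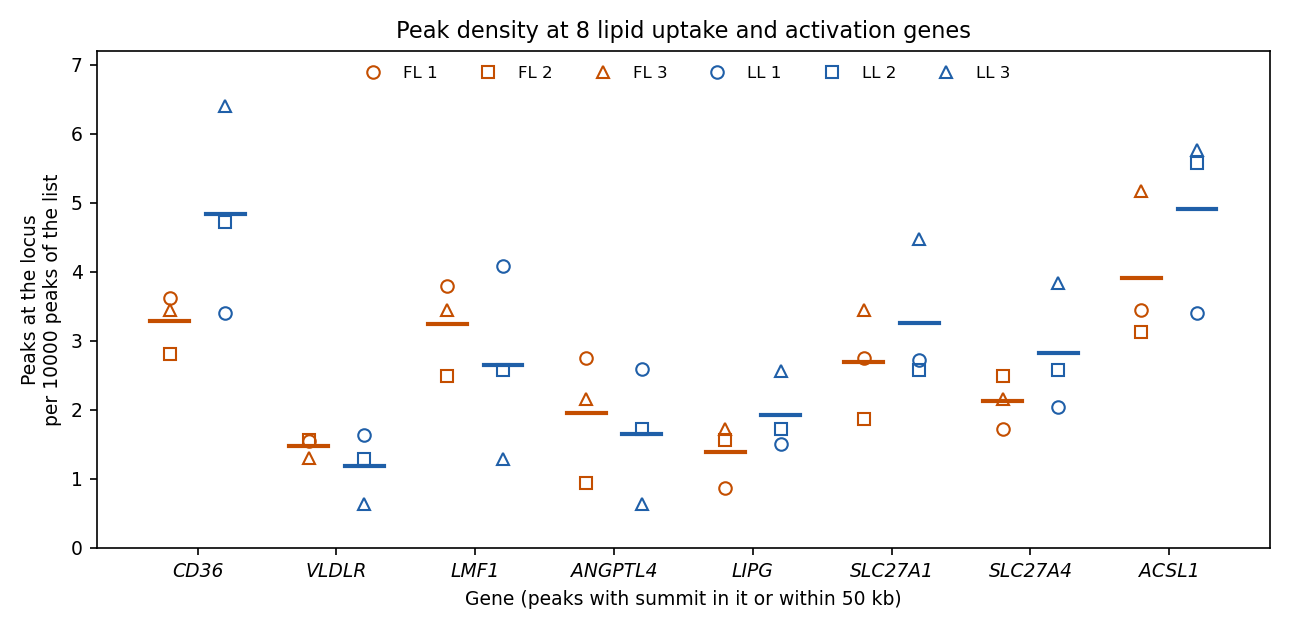
Peaks at each locus per 10000 peaks of the list (vertical axis), with 1 symbol per library, FL in orange and LL in blue, and a bar at the mean of each line (n = 3). The lines overlap at all 8 genes. CD36 in LL replicate 3 is the highest value, at 6.40, and VLDLR and ANGPTL4 in the same library are the lowest, at 0.640.

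The second comparison asked whether a peak lay within 1 kb of either end of the gene. The members with such a peak numbered 7, 5 and 5 of 8 in FL and 8, 6 and 3 in LL. Among all coding genes the share was 69.5%, 56.6% and 54.7% in FL and 72.3%, 48.6% and 41.5% in LL. LIPG, SLC27A1 and SLC27A4 were occupied in all 6 libraries, as were 35.7% of coding genes, and no member was free of peaks in all 6, as were 22.8%. LMF1 was the 1 member occupied in at least 2 more FL than LL libraries, a pattern that 6.21% of coding genes had, and no member was so in LL, against 1.08%. Without both FL replicate 1 and LL replicate 1 the LMF1 call stood, where 5.45% of coding genes were occupied more often in FL by the same share and 0.796% in LL. The LMF1 call was lost without LL replicate 2 or LL replicate 3, with −log10 q of 5 or more, with peaks of at least 178 bp, and at equal list lengths, where VLDLR was called in its place. LL replicates 2 and 3, the libraries without the LMF1 peak, had the lowest shares of all coding genes with an occupied end, 48.6% and 41.5%. The myeloid markers, a set picked after its counts were seen, stood at 2 of 6 there. The part of either in the LMF1 call was not tested. CD36 and ACSL1 were called in the direction of LL without FL replicate 1, as were 2.76% of coding genes, and without LL replicate 3, as were 2.33%. The ACSL1 call rested on the CENPU peak near the 1 kb limit, a peak called in all 6 libraries.

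**Figure D4:**
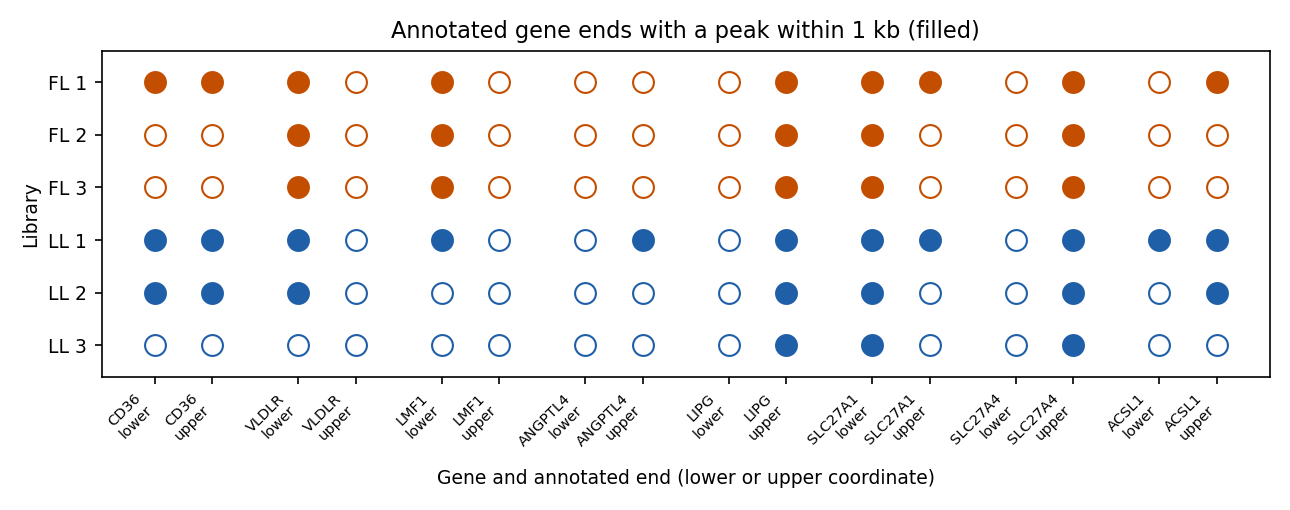
Gene ends with a peak within 1 kb in each library (rows), for the lower and upper annotated end of each of the 8 genes (columns). Filled circles are occupied and open circles are not, FL in orange and LL in blue. LIPG and SLC27A4 at the upper end and SLC27A1 at the lower end are filled in all 6 rows, and the LMF1 lower end is filled in FL 1 to 3 and LL 1.

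The third comparison followed the 171 regions themselves. None was called in every FL library and absent from every LL list, a pattern of 0.209% of all regions, and none showed the reverse, a pattern of 0.0849%. Regions called in all 6 libraries numbered 19 of 171, or 11.1%, against 7.59% of all regions. Of these 19, 12 stood at a gene end, 5 inside CD36 or ACSL1 and 2 outside coding genes. Another 20 regions were called in 5 libraries, 11.7% against 4.29% of all regions. The missing library was LL replicate 3 for 9 of them, FL replicate 2 for 8, LL replicate 2 for 2 and FL replicate 3 for 1. Among all regions called in 5 libraries, LL replicate 3 was missing from 46.3% and FL replicate 2 from 28.1%.

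Of the 171 regions, 62 were called in 1 library and 47 in 2. These were 36.3% and 27.5%, against 47.3% and 24.4% of all regions. LL replicate 1 alone called 48 of the 171 and FL replicate 1 with LL replicate 1 called 43, or 28.1% and 25.1%, against 22.9% and 20.4% of all regions. LMF1 had 13 of the 43, and CD36 and ANGPTL4 had 7 each. These are the same 2 libraries in which nearly all endothelial markers had occupied ends, and the part of those cells, or of list length, in these regions was not tested. Without both libraries, 5 of the 171 regions were called in both FL and neither LL library, against 2.68% of all regions, and 3 in both LL and neither FL library, against 2.08%.

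A looser count, added after the values were seen, took regions called in at least 2 more libraries of 1 line. It found 4 regions for FL and 4 for LL among the 171, while 3.49% of all regions leaned to FL and 3.29% to LL in this way. Among those leaning to FL were the LMF1 end and the end of URM1 5.5 kb below SLC27A4. Another was Z:27118667-27119372, 44.8 kb above VLDLR and 4107 bp from an end of KCNV2, its nearest coding gene. Each of these 3 was called in FL replicates 1 to 3 and LL replicate 1. Some of their FL peaks were shorter than 166 bp, the shortest peak in any LL list. These were 149 bp wide at LMF1, 150 bp at URM1, and 139 and 154 bp at Z:27118667-27119372. The part of this difference in the lean was not tested. Those leaning to LL were 4:38982086-38983197 inside ACSL1, 4:39062943-39063449 inside PRIMPOL next to ACSL1, 30:701145-701650 at PGLS and Z:27110468-27111158 inside KCNV2. The region inside ACSL1 stood in the top 41.2% of FL replicate 1 and the top 20.9%, 30.9% and 37.3% of the LL lists, with 60 fragments in FL replicate 1 and 131, 46 and 46 in LL.

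**Figure D5:**
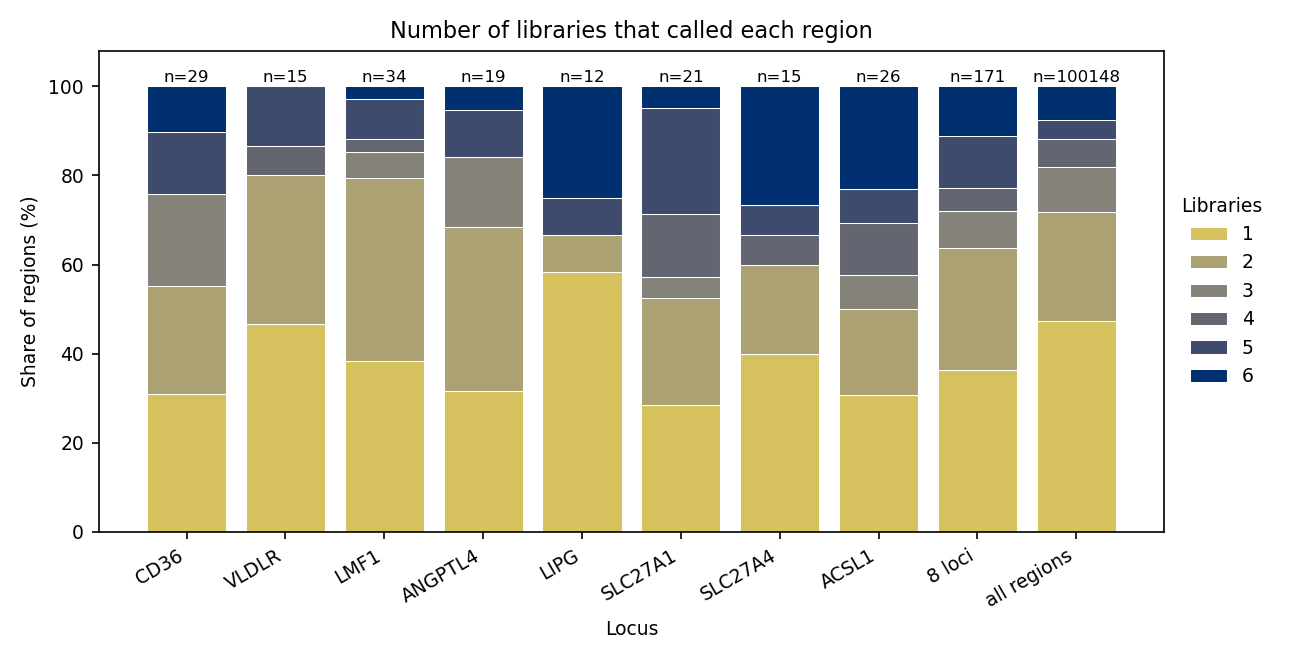
Share of the regions at each locus (percent, vertical axis) by the number of libraries that called them, from 1 (yellow) to 6 (dark blue), beside the 8 loci together and all 100148 regions. The number of regions is above each bar. ACSL1, SLC27A4 and LIPG have the largest shares called in all 6 libraries, with 6 of 26, 4 of 15 and 3 of 12, and VLDLR has none.

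A list of 30 further genes of lipid uptake and activation was read in the same way, and 26 were in the annotation. Gene ends were occupied in all 6 libraries for 10 of the 26, against 35.7% of coding genes, among them LPL, the lipase that LMF1 matures and ANGPTL4 inhibits, the fatty acid carrier FABP4 and the synthetases ACSL3 and ACSL4. LIPC, which encodes hepatic lipase, SLC27A2 and ACSL5 had no peak at either end in any library, as did 22.8% of coding genes. By peak density 0 of the 26 genes were higher in all FL libraries, against 2.98% of coding genes, and 3 were higher in all LL libraries, against 4.1%. These 3 were LMF2, a relative of LMF1, at 2.24, 1.25 and 2.16 peaks per 10000 in FL and 2.45, 2.57 and 3.20 in LL, the lipoprotein receptor SCARB1 and the acyl-CoA binding protein gene DBI. SCARB1 was at 3.27, 2.50 and 3.02 in FL and 3.68, 5.58 and 3.84 in LL. DBI was at 1.90, 1.87 and 1.73 in FL and 1.91, 2.57 and 1.92 in LL. The median difference, FL minus LL, was -0.37 peaks per 10000 over the 26 genes, -0.55 over the 8 members and -0.08 over all coding genes. These medians come from the full lists, which differ in length. At equal list lengths the differences were -1.07 at CD36, -0.853 at ACSL1, -0.213 at LMF1 and LIPG and 0 at SLC27A4. They were 0.853 at VLDLR and ANGPTL4 and 0.213 at SLC27A1.

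Some genes of this list had occupied ends in exactly the libraries of a member. LMF1 shared FL replicates 1 to 3 and LL replicate 1 with ACSS2, the cytosolic acetyl-CoA synthetase, which was the 1 list gene occupied in at least 2 more FL libraries; 4.88% of coding genes had this set. VLDLR shared its 5 libraries with ACSL6, FABP5 and GOT2, as did 6.26% of coding genes. ANGPTL4 shared LL replicate 1 alone with FABP3 and with GPIHBP1, which holds lipoprotein lipase on the capillary wall, and 3.94% of coding genes did so. LIPG, SLC27A1 and SLC27A4 shared all 6 libraries with ACSBG1, ACSBG2, ACSL3 and ACSL4 and 6 further genes, and 35.7% of coding genes had that set. CD36 and ACSL1 shared theirs with none of the 26, and 1.29% of coding genes had that set. For ACSL1 the set came from the 1 kb limit at the CENPU peak.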

How the data were processed

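ATAC-seq gave 6 libraries, 3 per line. Per the submitters' processing notes the tools were MACS3 3.0.0b1 and bedtools 2.30.0, with BWA, SAMtools, Trim Galore and FastQC, on GRCg7b. Not given in the sources used here are their settings, duplicate removal and a Tn5 shift. The authors deposited 1 peak list per library, not pooled, with position, summit, score, fold enrichment (a ratio to local background) and −log10 values of p and q. From the deposited fold and −log10 p, the fragments over each summit and the background were solved within a relative tolerance of 1e-04, for 100% of peaks. No read totals are given, so the lowest background of a list stands for depth. Folds and fragments are not on 1 scale between lists, and where they are set side by side this is a description.

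Peaks overlapping by at least 1 bp were joined into regions. The RefSeq GRCg7b gene table has no strand, exons or sequence, so a gene's start is not told from its other end, exons and introns are not separated, and the planned promoter sequences and motifs were not used here. Lines were compared in peak density by exact permutation (20 assignments), with a call where they did not overlap, and in gene ends by at least 2 more occupied libraries (60 points). Calls ran over 17839 coding genes or 100148 regions on 41 chromosomes (Python 3.11.15, numpy 2.4.6, scipy 1.17.1), after tests on simulated data. Members, lists and rules were chosen with earlier results of these data known. Named are all members, their regions called in all 6 libraries, and list genes called or sharing a member's libraries (at most 4 per member, alphabetical); other list genes, neighbours and regions were named after their values were seen. One region of the SLC27A1 window is not reported here.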

Additional observations from a re-analysis of the deposited data

How the results depend on the processing

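Calls on 3 libraries per line moved with the libraries and limits used, and the cause was not tested. Members with higher peak density in FL numbered 0, but 1 (VLDLR) with −log10 q of at least 5 and 0 to 1 when 1 library was left out. In LL they numbered 0, but 1 with a 10 kb window (CD36), 1 with a 100 kb window (SLC27A4), 1 with peaks nearest to the member (CD36) and 0 to 3 when 1 library was left out. A replicate block, asking that all 3 same-numbered pairs differ in 1 direction, gave 2 (LIPG and SLC27A4) for LL and 0 for FL. The smallest p this block allows is 0.25. For the q limit, the window sizes, the nearest peaks and the block, no share of coding genes was set beside these counts. They are therefore not read as a result about the members. The deviations of same-numbered libraries correlated with r of 0.58, -0.06 and -0.002 over coding genes. Pairs of unlike number ran from -0.46 (FL replicate 1 with LL replicate 3) to 0.39 (FL replicate 2 with LL replicate 3). The pair at 0.58 is also the pair of longest lists. The labels do not say whether the numbers pair the birds, and these values cannot decide it.

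Members with an end occupied more often in FL numbered 1 (LMF1), but 0 with −log10 q of at least 5 or with peaks of at least 178 bp, 2 with ends of 500 bp (VLDLR, LMF1) and 0 to 1 when 1 library was left out; at equal list lengths the 1 was VLDLR, not LMF1. In LL they numbered 1 (SLC27A4) at equal list lengths and 0 to 2 when 1 library was left out. Regions called in 1 line numbered 0 to 4 for FL (4 without LL replicate 1) and 0 to 3 for LL (3 without FL replicate 1, 1 without LL replicate 3) when 1 library was left out, and 1 for LL at equal list lengths. For these regions, and for the ends under other limits, no share of all regions or coding genes was set beside the counts. They are likewise not read as a result about the members. Without both longest lists, an alternative chosen after seeing the data, 1 member was denser in FL, 3 were denser in LL, and 5 FL and 3 LL regions were called in 1 line. Regions called in all 6 numbered 12 of 62 at equal list lengths, 10 of 87 at 10 kb and 29 of 277 at 100 kb. Peaks at the loci numbered 39 at equal list lengths in both FL replicate 1 and LL replicate 1, 56 and 79 at 10 kb, and 193 and 253 at 100 kb.

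FL minus LL density changed direction in 10 of 120 alternatives. The values were -0.11 for VLDLR at 100 kb, -0.20 for LMF1 with −log10 q of 5 or more and -0.21 for it at equal list lengths, -0.12 for ANGPTL4 with nearest peaks, 0.17 for LIPG with wide peaks and 0.21 for SLC27A1 at equal list lengths. When 1 library was left out, LMF1 ran from -0.0853 to 1.32, ANGPTL4 from -0.20 to 0.81 and SLC27A1 from -0.946 to 0.0434. CD36 and ACSL1 kept their direction in all 15 alternatives each, and SLC27A4 in all but equal list lengths, where its difference was 0. The replicate block counts among the alternatives and keeps the main difference by construction, so it could not change direction at any gene. The alternatives also reuse the same libraries and are not independent. LMF1 and ANGPTL4 had a difference of 0 in numbers of peaks without scaling.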
